A study of Macaca fascicularis with 44 samples.

Results

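Cluster 18 is a subset of the cells that the deposited annotation of a cynomolgus monkey embryo culture names EVT, extravillous trophoblast. Its members were chosen by 2 columns of that annotation, the cell type EVT and the cluster number 18 of a graph clustering at resolution 2. The rule found 87 of 3682 cells, 2.36% (exact 95% interval 1.90% to 2.91%), or 15.4% of 566 EVT cells (12.5% to 18.6%). The working name of these cells is a mesenchyme-like extravillous trophoblast, with PIK3IP1, GHV, CSH2 and PER2 as proposed markers.

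The study cultured cynomolgus monkey blastocysts in 3 dimensions past implantation stages and sequenced total RNA of single cells. The 44 libraries came from 9 embryos collected between E16 and E25. All embryos were wild type, made by sperm injection into oocytes and grown in vitro, and tissue outside the embryo was removed at dissection before the cells were dissociated and picked. The values are deposited counts per gene and cell, and levels below are CPM, the counts of a gene relative to all counts of a set of cells. E24 and E25, the days that matter most here, are each 1 embryo, so libraries of a day are parts of 1 embryo and every spread below is a spread between libraries, which may be technical. In such sums, fewer cells with a transcript and less transcript per cell cannot be told apart.

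Extravillous trophoblasts leave the tips of the placental villi and invade the uterine wall. They are known for proteases and their inhibitors, for matrix receptors and for a set of secreted proteins. The villous core and the membranes around the embryo are built by extraembryonic mesenchyme (EXMC), whose cells secrete fibrillar collagens and proteoglycans and do not make keratins as trophoblasts do. Cytotrophoblasts (CTB) are the stem-like layer from which both extravillous trophoblasts and the hormone-secreting syncytiotrophoblast (STB) arise. GHV and CSH2 belong to the growth hormone and placental lactogen family, whose placental members are secreted by trophoblasts in primates. PER2 is part of the circadian clock, and PIK3IP1 is an inhibitor of PI3-kinase signalling.

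Most members came from a few libraries. Library 21 (E24) held 29, and libraries 17, 16 and 22 (E25) held 14, 11 and 10, while 15 other libraries held 23 between them, at most 4 each. The E25 embryo gave 36 members among 48 EVT cells (75.0%, exact 95% interval 60.4% to 86.4%). In the E24 embryo of the annotation it was 32 of 110 EVT cells (29.1%, 20.8% to 38.5%), and in the E21 embryo 10 of 20 (50%, 27.2% to 72.8%). Those embryos include libraries 27 and 26, whose labels disagree on the day. Without them the shares were 32 of 76 (42.1%, 30.9% to 54.0%) and 9 of 18 (50%, 26.02% to 73.98%). The E20, E18 and E23 embryos had many EVT cells but few members, 4 of 164 (2.44%), 2 of 64 (3.13%) and 2 of 146 (1.37%). Within the E24 embryo the libraries differed, with 29 of 47 EVT cells in library 21, 3 of 29 in library 20 and 0 of 34 in library 27. In libraries 17 and 22 every EVT cell was a member, 14 of 14 and 10 of 10. These intervals cover the counting of cells only.

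**Figure D1:**
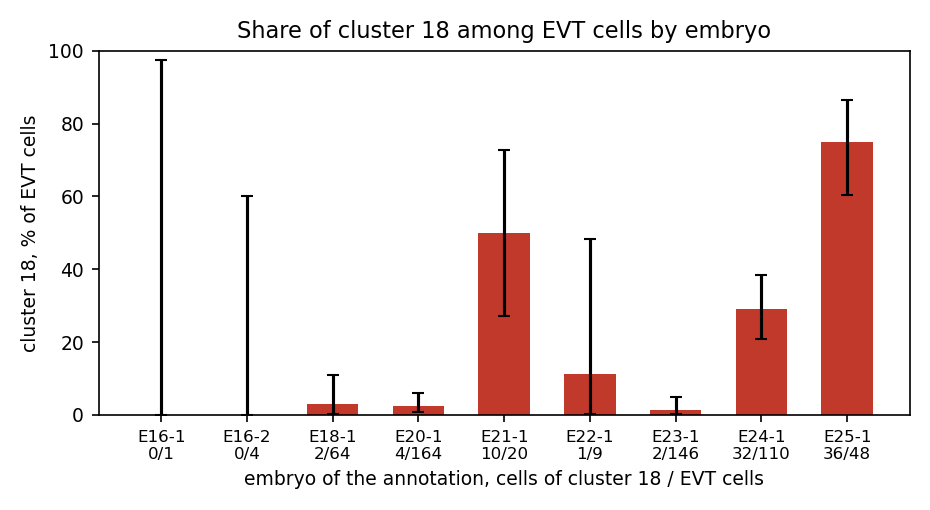
Share of cluster 18 among the EVT cells of each embryo, in percent. Bars are shares with exact 95% binomial intervals, and the numbers of cells stand under each bar. The E25 embryo reaches 75.0% and the E20, E18 and E23 embryos lie under 4%.

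Libraries 26 and 27 carry 2 different days in their labels and entered no comparison of days, and they hold 1 and 0 members. They count in the pooled sets of cells and in the shares by embryo. Library 21 holds 29 members and stands apart in GHV and CSH2, as described below. Library 22 carries another code in its column names (20210820) than libraries 16, 17 and 21 (20210727), and the labels do not say what the code means. All 96 cell numbers recur in more than 1 library, so a cell was identified by library and number together. Members had a median of 77731 counts (1056 to 611870) and 4726 genes. The medians of other EVT cells were 70152 counts and 4166 genes, and those of EXMC 107826 and 4765. With every cell thinned to 5000 counts, which 78 members reached, the median was 1733.5 genes in cluster 18 and 1682.5 in other EVT. Shallow cells were frequent, since 24 of 87 members (27.6%) had under 20000 counts. In library 16 the median was 18876 counts for members against 157147 for EXMC cells, and in library 22 it was 90485.5 against 63493. The part of depth in the results below was not tested.

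The first question was which side of the name the cells bear out. Collagen and proteoglycan transcripts stood far above other EVT and below EXMC. Of 18 EXMC markers, 17 were at least 2 times above the other EVT cells, with a median log2 difference of 3.38 (pseudocount of 1 CPM). Among the 8917 genes with 10 CPM or more in a compared set, 14% were that much above other EVT, and the median log2 difference was -0.11. The cells had been clustered on these same genes, so the comparison is a description and carries no test.

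COL1A1, a chain of the main fibrillar collagen, stood at 4954 CPM in cluster 18, 337 in other EVT, 699 in STB, 207 in CTB and 7645 in EXMC. By library it was 6160 (16), 4724 (17), 5450 (22) and 6846 (21), so all 4 libraries lay above every pooled set but EXMC. COL3A1, which forms thin fibrils with it, gave 8246 CPM against 734 in other EVT and 13828 in EXMC. DCN, the proteoglycan decorin that coats collagen fibrils, gave 3870 against 296 and 6518. Its 4 library values were 3613, 3442, 3655 and 6215, the highest in E24. COL1A1, COL3A1 and DCN had counts in 87 of 87 members.

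The same order held for other products of matrix-making cells. SPARC, a collagen-binding matrix protein, was at 3052 CPM in cluster 18, 492 in other EVT and 4590 in EXMC. LUM, the proteoglycan lumican, was at 2390, 331 and 4155. VIM, the intermediate filament of mesenchymal cells, was at 1465 CPM against 124 in other EVT, and nearly equal to EXMC at 1514. TCF21, a transcription factor of mesenchyme, was at 97.1, 9.34 and 248.7 CPM. HGF, a growth factor that stromal cells supply to epithelia, was at 991, 69.2 and 1757 CPM, with 1481 in library 21 and 367, 658 and 292 in the E25 libraries. OGN, the proteoglycan osteoglycin, was at 228 CPM against 4.59 in other EVT and 247 in EXMC. Its E25 values of 420, 357 and 230 were under those of EXMC cells of the same libraries (917, 870 and 869), and its E24 value of 188 was above (73.3). The exception of the list was FBN1, fibrillin, at 257 CPM against 899 in other EVT and 151 in EXMC.

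Summed over the list, EXMC markers made up 29460 CPM in cluster 18, 3695 in other EVT, 5548 in STB, 1793 in CTB and 47223 in EXMC. Library by library the sums were 31136, 27728 and 28292 CPM in E25 and 39876 in E24. EXMC cells of the same libraries gave 58299, 48021, 59038 and 48156 CPM, so members were lower than EXMC in each of the 4. Of the 18 genes, 17 lay strictly between other EVT and EXMC, against 51.8% of all genes compared. TCF21 was the 1 gene at least 2 times below EXMC (log2 difference -1.35), where 3.97% of all genes were. PDGFRB, a receptor of mesenchymal cells, was the 1 marker highest in cluster 18 (43.2 CPM against 41.2 in EXMC), where 15.7% of all genes were. A separate list of 9 measured genes, with regulators of the mesenchymal state and adhesion genes of epithelial and mesenchymal cells, went both ways. ZEB2, SNAI2, TWIST1 and CDH2 were at least 2 times above other EVT of all embryos and SNAI1 at least 2 times below. ZEB2, a repressor of epithelial genes, was at 112 CPM against 13.1, and SNAI2, a repressor of the same kind, at 117 against 12.9. TWIST1, a mesoderm transcription factor, reached only 10.7 CPM against 0.17. CDH2, N-cadherin, was at 14.5 against 2.89 CPM, but 1 cell held 54.3% of its counts. SNAI1 was at 31.98 against 87.5 CPM. With cells of the E24 and E25 embryos alone, 5 of the 9 were at least 2 times above other EVT and 1 below. There 17.6% and 10.7% of all genes were. EPCAM, an epithelial gene, was then above at 104 against 19.7 CPM, and CDH2 was not, at 3.64 against 3.85.

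The trophoblast side was weaker and depended on the library. Other EVT cells differed between embryos, so their levels in all embryos are followed by those in the E24 and E25 embryos. These hold 68 members, 32 among 110 EVT cells in E24 and 36 among 48 in E25, so the days are mixed unequally. Of 12 EVT markers measured, 7 were at least 2 times below other EVT, where 13.3% of all genes compared were, and 2 were at least 2 times above (ADAM12 and FN1). With members and other EVT of those embryos alone, 5 were at least 2 times below and 1 (ADAM12) above, where 10.7% and 17.6% of all genes were. Against EXMC, 6 of the 12 were at least 2 times above, where 8.8% of all genes were. MAMU-AG, HLA-G, DIO2 and PRG2 are not analysed here. LAIR2, a soluble collagen-binding receptor, was at 1433 CPM in cluster 18, 11623 in other EVT and 175 in EXMC. HTRA4, a serine protease of the placenta, was at 165, 1206 and 17.8 CPM. NOTUM, a secreted enzyme that inactivates Wnt proteins, was at 362, 1440 and 69.3 CPM. MMP2, a gelatinase, stood at 270 CPM against 1317 in other EVT, and EXMC had about as much (261). In the E24 and E25 embryos MMP2 was at 239 CPM in members and 332 in other EVT, and SERPINE2 at 1527 and 1702. SERPINE2, a serine protease inhibitor, was at 2735, 6227 and 725 CPM, with 46.3% of the members' counts in 1 cell. LAIR2, HTRA4 and NOTUM kept the order in the E24 and E25 embryos, at 1619 against 12020, 229 against 2098 and 443 against 2293 CPM. ADAM12, a metalloprotease, was at 140 CPM against 13.8 in other EVT and 144 in EXMC, and FN1, fibronectin, at 3840 against 1671 and 4914. In the E24 and E25 embryos FN1 was at 4192 CPM in members and 3468 in other EVT. The 2-fold excess of the pool of all embryos was not met there. ADAM12 was at 162 against 23.7 CPM there.

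Genes that all trophoblasts share stood between EXMC and other EVT in 5 of 6 cases in the pool of all embryos, where 51.8% of all genes did. All 6 measured were at least 2 times above EXMC, where 8.8% of all genes were, with a median log2 difference of 2.77. At least 2 times below other EVT were 2 of them, where 13.3% of all genes were. GATA3, a transcription factor of the trophoblast lineage, was at 145 CPM in cluster 18, 308 in other EVT, 501 in STB, 260 in CTB and 19.4 in EXMC. Its library values were 121.5, 128.8 and 147.2 in E25 and 291.3 in E24, each above the 24.3, 35.4, 23.1 and 70.1 of EXMC cells of the same library. KRT7, a keratin of simple epithelia, was at 158 CPM, with 646 in other EVT, 433 in CTB and 18.1 in EXMC. KRT19, another keratin, was at 978, 1526, 1518 and 277 CPM in the same order. In the E24 and E25 embryos KRT19 was above other EVT instead, at 860 against 585 CPM. GATA3 (181 against 489) and KRT7 (117 against 342) were below there. With these embryos pooled, 3 of the 6 were at least 2 times below other EVT, where 10.7% of all genes were. Within library 21 (E24) KRT19 was lower in members, at 385 against 578 CPM in other EVT. E25 members of libraries 16, 17 and 22 had 975, 1299 and 842 CPM, against 485 in 6 other EVT cells of library 15. The list summed to 1349, 1634 and 1242 CPM in E25 and 1161 in E24, against 424, 516, 409 and 345 in EXMC cells of those libraries.

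Transcripts of other trophoblast layers were present too. Of 8 CTB markers measured, 6 were at least 2 times above EXMC, where 8.8% of all genes were. None was 2 times above other EVT of all embryos, where 14% of all genes were. Within the E24 and E25 embryos 5 of the 8 were at least 2 times above other EVT, where 17.6% of all genes were. Among them were EPCAM (104 against 19.7 CPM) and PAGE4 (1414 against 362). Within library 21 PAGE4 was at 558 CPM in members and 316 in other EVT, under a factor of 2. EPCAM, an epithelial adhesion protein of cytotrophoblast, was at 130 CPM against 67.1 in other EVT, 21.5 in EXMC and 214.5 in CTB. PAGE4, an abundant cytotrophoblast transcript here, was at 1331 CPM against 739, 280 and 3997. CGA, the common alpha chain of gonadotropins and a product of STB, was at 2635 CPM against 838 in other EVT, 259 in EXMC and 41661 in STB. CGA differed between libraries, from 1606 CPM (22) and 2215 (17) to 5674 (16) and 6407 (21), and its median over cells was 6281 CPM in members under 20000 counts and 840 in the others. The whole STB list of 10 measured genes summed to 3192 CPM, against 3098 in other EVT and 47798 in STB. The part of RNA from neighbouring cells in these levels was not tested.

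Markers of other cell types differed by list. The macrophage list of 8 genes summed to 21.7 CPM, and CD163, C1QA and LYVE1 were at 0. The endothelial list summed to 470 CPM, against 334 in EXMC and 1543 in other EVT. Of its 5 measured genes 3 were at least 2 times above other EVT and 2 below, where 14% and 13.3% of all genes were. CLDN5 and EMCN were at 0. PECAM1 was at 110 CPM against 1352 in other EVT and 16.4 in EXMC. KDR, a receptor for endothelial growth factor, was at 123 CPM, with 8.46 in other EVT and 82.5 in EXMC. TEK and EGFL7, a receptor and a secreted protein of vessels, were at 72.0 and 121 CPM, with 13.3 and 36.3 in other EVT and 86.4 and 142 in EXMC. The part of endothelial cells in these levels was not tested. The blood list summed to 0.31 CPM. Endoderm genes summed to 120 CPM, of which TTR gave 75.6, and library 22 alone reached 655 CPM for TTR.

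Most members had high levels of both the EXMC list and the shared trophoblast list. The cells had been clustered on these same genes, so the share below is a description. A member was counted as high for both when its EXMC list exceeded 12899 CPM, the 90th percentile of other EVT cells, and its shared trophoblast list exceeded 739 CPM, the 90th percentile of EXMC cells. Of 87 members, 67 passed both (77.0%, exact 95% interval 66.8% to 85.4%). The share was 5.43% of other EVT, 9.11% of EXMC, 5.41% of STB and 1.46% of CTB cells. By the choice of thresholds 10.0% of other EVT cells passed the EXMC list and 10.0% of EXMC cells the trophoblast list. The shares of these 2 sets could not exceed that, so their distance from the members was set in part beforehand. Without cells under 20000 counts in any set, and with both percentiles taken anew, 87.3% of the remaining members passed both. In cells thinned to 5000 counts, COL1A1 was found in all 78 members. KRT7 was found in 43.6% of these members, 67.3% of other EVT and 7.42% of EXMC cells, and GATA3 in 50%, 59.9% and 8.62%. EPCAM was found in 37.2% of members, 18.8% of other EVT and 6.48% of EXMC cells. Pooled over all libraries, the median was 77731 counts in members, 107826 in EXMC and 169543 in CTB, and the order differed by library. In library 22 the medians were 90485.5 counts for members, 63493 for EXMC and 84325 for CTB. They were 144552, 127336 and 262344 in library 17 and 18876, 157147 and 230910 in library 16. In library 21 they were 56512, 73992 and 36173. No doublet call was made, and the part of doublets in the share of 77.0% was not tested.

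**Figure D2:**
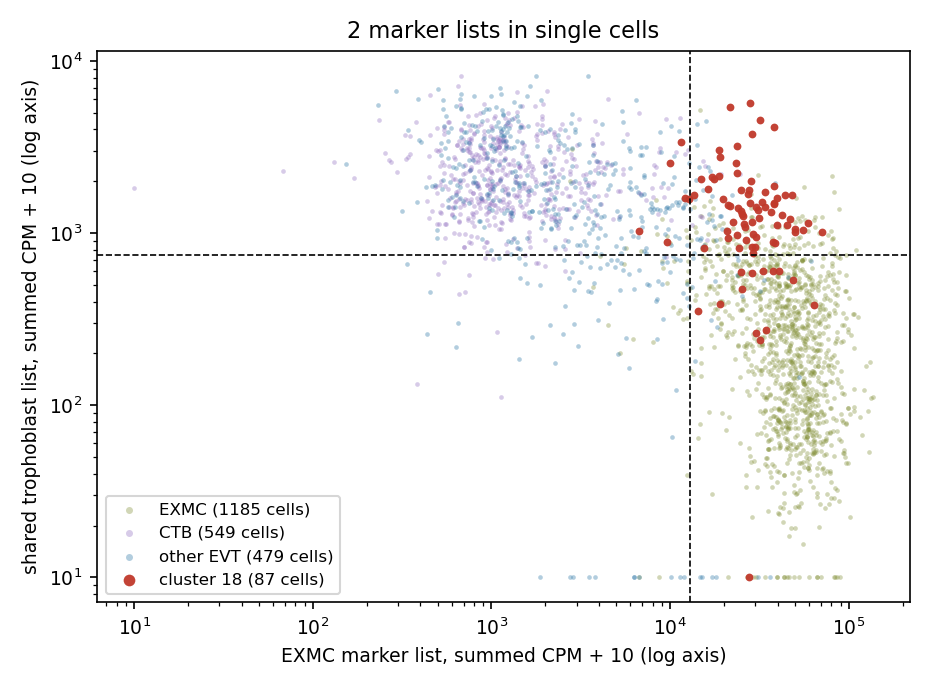
Each point is 1 cell, placed by its summed level of 18 EXMC markers and of the shared trophoblast genes, in CPM plus 10 on log axes. Dashed lines mark the 90th percentiles of 12899 and 739 CPM, and 67 of 87 members (red) lie past both.

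The intermediate level was general among genes that separate the classes. For each gene at least 4 times apart between other EVT and EXMC and at 100 CPM or more in the higher, cluster 18 was placed on the straight line between both levels, from 0 at other EVT to 1 at EXMC. The 156 EXMC-high genes had a median position of 0.560 (quartiles 0.464 and 0.692), and 147 of them lay strictly between. The 202 genes high in other EVT had a median of 0.782 (0.654 and 0.854), and 196 lay between. Over all genes compared 51.8% lay strictly between. The 156 and 202 genes were picked for a wide gap, where falling between is easier, and no other class was placed on this line. On this line, which is linear in CPM, cluster 18 was midway for mesenchymal genes and nearer to EXMC for EVT genes. The log2 scale gave another picture. There the 18 EXMC markers had a median difference of 3.38 from other EVT and -0.61 from EXMC, so they lay nearer to EXMC. The 12 EVT markers had medians of -1.07 from other EVT and 1.12 from EXMC. Among the highest EXMC genes the position was 0.574 for COL3A1, 0.632 for COL1A1, 0.575 for DCN and 0.474 for TMSB4X, which binds actin monomers. Among the highest EVT genes it was 0.890 for LAIR2, 0.635 for SERPINE2, 0.868 for SRI (sorcin, a calcium-binding protein), 0.846 for ISM2 (a secreted protein of placenta) and 0.836 for ITM2B. Measured between CTB and EXMC instead, an axis added after seeing the data, the medians were 0.590 for 186 EXMC-high genes and 0.652 for 126 CTB-high genes.

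The 2 days were placed differently on that line. For EVT-high genes libraries 16, 17 and 22 of E25 stood at 0.936, 0.873 and 0.875, near EXMC, and library 21 of E24 at 0.623. For EXMC-high genes the E25 libraries stood at 0.394, 0.489 and 0.458 and library 21 at 0.646. The groups did not overlap on either measure, with 1 library on the E24 side.

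**Figure D3:**
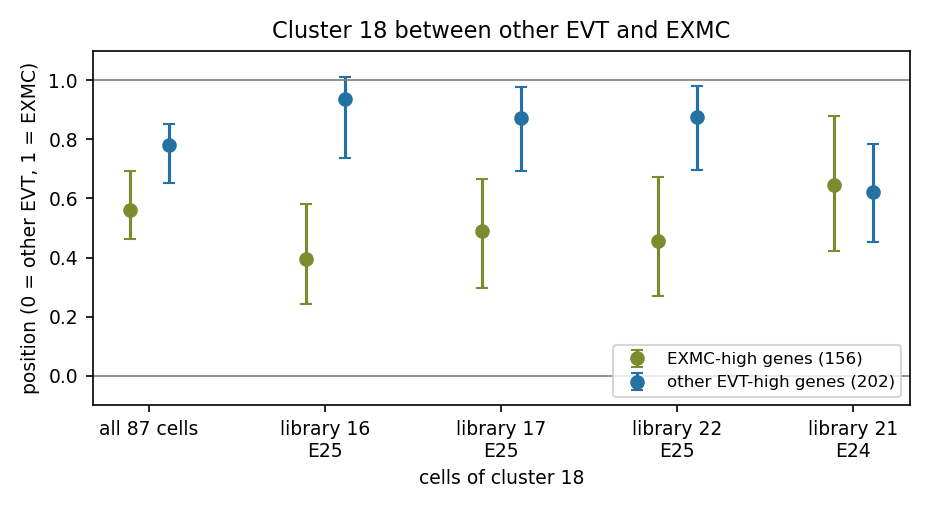
Position of cluster 18 on the line, linear in CPM, from other EVT (0) to EXMC (1), for all 87 cells and for each library with 5 or more members. Points are medians over 156 EXMC-high genes and 202 genes high in other EVT, and whiskers are the quartiles. The EVT-high genes sit near EXMC in the 3 E25 libraries and at 0.623 in library 21.

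As a description added after seeing the data, the profile of cluster 18 was fitted as a sum of the pooled profiles of the other classes with weights of 0 or more. Over all members the weights were 0.651 for EXMC, 0.218 for CTB, 0.105 for other EVT and 0.0250 for STB. In libraries 16, 17 and 22 the weight of other EVT was 0 and that of CTB 0.266, 0.227 and 0.240. In library 21 other EVT had 0.258 and CTB 0. With class profiles of the same embryo only, the EXMC weight was 0.534, 0.603, 0.538 and 0.595 in libraries 16, 17, 22 and 21. Other EVT then had 0.347 in library 21 and at most 0.0513 in the E25 libraries, where CTB had 0.426, 0.314 and 0.351. A weight describes the sum of counts and is not a number of cells.

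At coarser settings of the deposited clustering, members were not grouped with EXMC. At resolutions 0.3, 0.5 and 0.8, 85, 85 and 86 of 87 members shared a cluster with other EVT cells, nearly all from cluster 7 of the finer clustering, and with 0 to 3 EXMC and 2 CTB cells. Cluster 7, with 196 cells, had a median of 6011 CPM for the EXMC list, above the 1410 of cluster 13, the 1110 of cluster 19 and the 4453 of cluster 23.

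The second question was which genes exceed other EVT, STB and EXMC together. With a minimum of 10 CPM and a factor of 2 over the highest of the 3, 60 of 7563 genes passed (0.793%). They were weakly expressed, with a median of 15.6 CPM, and 1 exceeded 100 CPM. In 45 of the 60 a single cell held over 25% of the members' counts, and in 16 over 50%. In 7 of them the CTB level was as high or higher. Without library 21, 105 genes passed. The genes with the largest folds, TAC1 and TF, had 93.1% and 76.4% of their counts in 1 cell.

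Higher in each of the 4 libraries than in all 3 pooled sets were 5 of the 60, of which LRP2 and ABCA7 also had a symbol and 20 CPM or more. LRP2, the endocytic receptor megalin, was at 31.8 CPM (307 counts in 23 cells), against 8.16 in other EVT, 10.1 in STB and 2.78 in EXMC. Its library values were 43.8 (16), 52.1 (17), 34.5 (22) and 35.4 (21) CPM. CTB cells had more LRP2, at 76.5 CPM. In cells thinned to 5000 counts the log2 difference of LRP2 from the highest of the 3 sets was 0.26, under a factor of 2, against 1.56 without thinning. ABCA7, a lipid transporter, was at 24.8 CPM (240 counts in 37 cells), against 9.38, 4.10 and 9.89, and 7.40 in CTB. Its library values were 33.9, 38.8, 52.9 and 17.4 CPM, lowest in E24, and the log2 difference from the highest of the 3 sets was 1.25. Against sets from the E24 and E25 embryos alone it was 0.67, under a factor of 2. The other 3, taken for this property after their values were seen, were MEX3B (14.9 CPM), SCG5 (18.6 CPM) and a gene without a symbol. BST2, an interferon-induced membrane protein, was the most abundant of the 60 at 148.4 CPM, against 69.6 in STB, the next highest of the 3, and 162.6 in CTB. Among list members outside the proposed markers, TTR, GABRP and VTCN1 passed. GABRP and VTCN1, 2 amnion markers, were at 17.5 and 12.5 CPM. One cell held 76.0% of the VTCN1 counts, and VTCN1 was at 0 in libraries 16 and 21. TNC, the other amnion gene measured, was at 8.59 CPM against 61.8 in EXMC, and the amnion list summed to 44.9 against 68.8.

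Of the 4 proposed markers, GHV and CSH2 passed, and both came from 1 library. GHV had 339 counts and CSH2 164, all in library 21, where 24 and 22 of 29 members carried them, at 185 and 89.3 CPM. The 58 members of other libraries had 0 counts of either gene, which allows up to 0.383 CPM (3 counts). Other cells of library 21 carried them too. GHV was at 117 CPM in other EVT (13 of 18 cells), 38.2 in EXMC (23 of 36 cells) and 40.3 in CTB (3 of 5 cells) of that library. CSH2 was at 42.9, 17.3 and 40.3 CPM there. Libraries 20 and 27, from the same embryo in the annotation, had 0 and 2 GHV counts over all cells. Library 21 held 58.6% of the GHV counts and 45.8% of the CSH2 counts of all 44 libraries. Against sets from the E24 and E25 embryos alone, the log2 differences from the highest set were 0.33 for GHV and 0.68 for CSH2. Both were under a factor of 2. With members of those embryos alone as well, GHV was at 56.1 CPM against 27.6 in other EVT and CSH2 at 27.2 against 10.2. The part of this library, and of free RNA in it, in the GHV and CSH2 levels was not tested.

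**Figure D4:**
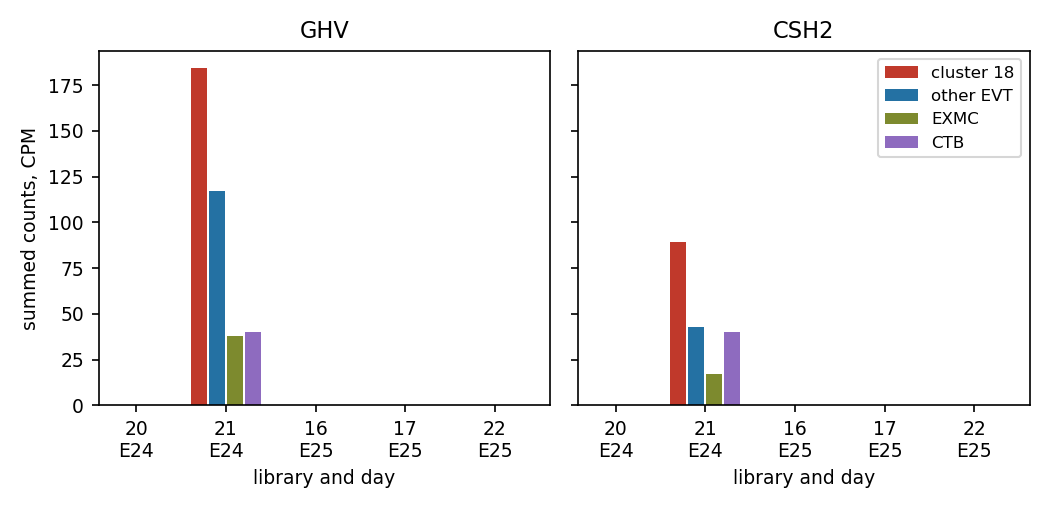
GHV and CSH2 levels in CPM of summed counts, by library and class, for the libraries of E24 and E25 shown. Only library 21 has bars, in all 4 classes, with cluster 18 the highest at 185 CPM for GHV and 89.3 for CSH2.

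PER2 and PIK3IP1 did not pass. PER2 was at 9.62 CPM (93 counts in 14 cells), against 3.85 in other EVT, 3.79 in STB and 6.59 in EXMC. It varied from 43.8 CPM in library 16 to 11.3, 5.75 and 3.81 in libraries 17, 22 and 21, and 1 cell held 44.1% of the counts. PIK3IP1 had 25 counts in 4 cells, 2.59 CPM, and 76.0% of them lay in 1 cell. Beside the 14% of all genes above and the 13.3% below other EVT, these lists held the following. Of the clock list of 19 genes, 4 reached 10 CPM in a compared set and 1 of them was 2 times above other EVT. Of the 11 measured PI3-kinase and FOXO genes, 2 were at least 2 times above other EVT and 1 below, with a median log2 difference of 0.00077. Of 13 proliferation genes measured, none was 2 times above other EVT and 3 were 2 times below. CCNB1, a mitotic cyclin, stood at 231 against 931 CPM and RRM2, a subunit of ribonucleotide reductase, at 104 against 425. With the E24 and E25 embryos alone, 2 of the 13 were at least 2 times above other EVT and 1 below. There 17.6% and 10.7% of all genes were. RRM2 was then at 83.5 against 109 CPM, under a factor of 2, and CCNB1 at 204 against 1044. Of 7 glucocorticoid response genes measured, 1 was above (MT1X, a metallothionein, 385 against 28.1 CPM) and 3 below. Within the E24 and E25 embryos 0 of 4 clock, 1 of 11 PI3-kinase and FOXO and 1 of 7 glucocorticoid genes were 2 times above. Below were 1, 2 and 2 in the same order.

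The last comparison set E25 against E24 within cluster 18, using counts summed over members in libraries 16, 17 and 22 (E25) and library 21 (E24). Of the EVT markers tested, 7 of 12 were lower in E25 and none passed as higher. Of 10003 genes tested with edgeR's quasi-likelihood test, 132 differed at an adjusted p under 0.05 (1.32%), 59 higher in E25 (0.59%) and 73 higher in E24 (0.73%). DESeq2 gave 121 and 80 and limma-voom 98 and 202 in the same order, and without library 16 edgeR gave 19 and 48, without library 22 107 and 115. The lone E24 library was assumed to vary like the E25 libraries, and day, embryo and library 21 cannot be told apart. On simulated counts of the same design, 53 of 100 genes changed 16-fold were recovered and 18 of 100 changed 4-fold, so a gene that was not called may still differ.

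The 12 EVT markers had a median of -1.53 on the log2 scale against 0.09 over all genes, and 1 of the 12 had a positive value. LAIR2 was at 284.9, 614.3 and 444.0 CPM in E25 (mean 447.8 ± 164.7, SD, n = 3) and 4190 in E24, a log2 difference of -3.23 (SE 0.28, edgeR adjusted p = 5.6e-09). SERPINE2 was at 378.6, 402.0 and 559.1 CPM against 4043, a log2 difference of -3.18 (SE 0.25, edgeR adjusted p = 1.5e-09). HTRA4 was at 88.7, 99.3 and 74.8 CPM against 546, and NOTUM at 186, 170 and 318 against 997. These 4 genes were taken from those called higher in E24, so the place of the E24 library above all 3 E25 libraries is no further result. ITGA5, the fibronectin receptor subunit, differed by -2.30, TIMP3, a metalloproteinase inhibitor, by -1.63 and FN1 by -1.43 on the same scale. Without library 16 the call of TIMP3 was lost (edgeR adjusted p = 0.085) and those of the other 6 remained. Even so, LAIR2 and HTRA4 in each E25 library stayed above EXMC cells of the same library, which had 142, 224 and 29.3 CPM of LAIR2 and 30.8, 26.2 and 19.7 of HTRA4. For NOTUM library 16 did not (186 against 211 CPM).

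The same contrast was fitted alone in other cells of these embryos, which share libraries with cluster 18. In other EVT cells (E25 library 15, 6 cells, against E24 libraries 20 and 21) 1732 of 9555 genes differed (18.1%), 7.22% higher in E25 and 10.9% higher in E24. In EXMC 748 of 11525 differed (6.49%), 3.06% and 3.43% in the same order, and in CTB 76 of 9836 (0.773%), 0.275% and 0.498%. In other EVT the log2 differences were 2.24 for LAIR2, 1.37 for HTRA4 and 1.23 for NOTUM, each called higher in E25, and -0.62 for SERPINE2, which was not called (edgeR adjusted p = 0.15). LAIR2 in other EVT stood at 33086 CPM in the E25 library and at 11089 and 5931 in the E24 libraries. In EXMC LAIR2 differed by -0.83 (edgeR adjusted p = 0.51) and SERPINE2 by -1.55 (edgeR adjusted p = 0.0030). A test of the difference between contrasts, added after seeing the data, called 52 of 11069 genes against other EVT (0.47%), 37 with a lower value in cluster 18. Among them were LAIR2 (-5.50, edgeR adjusted p = 3.1e-05), HTRA4 (-4.04), NOTUM (-3.44) and SERPINE2 (-2.61, edgeR adjusted p = 0.031). It rests on 1 library of cluster 18 in E24 and 1 library of 6 other EVT cells in E25, both assumed to vary like the other libraries, and these do not share a library. Without library 17 it called 31 genes, and SERPINE2 was lost (edgeR adjusted p = 0.15). Against EXMC edgeR called 0 of 12888, with 973 at an unadjusted p under 0.05 and a smallest adjusted p of 0.089. With the library as a block, over the 4 libraries that hold both sets, edgeR called 3 of 12073. These were OGN (log2 difference of the contrasts -2.87, edgeR adjusted p = 4.7e-07), PAGE4 (2.17, edgeR adjusted p = 2.4e-04) and PTTG1 (-2.82, edgeR adjusted p = 0.0059), chosen after their values were seen. No other tool was run on these differences.

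**Figure D5:**
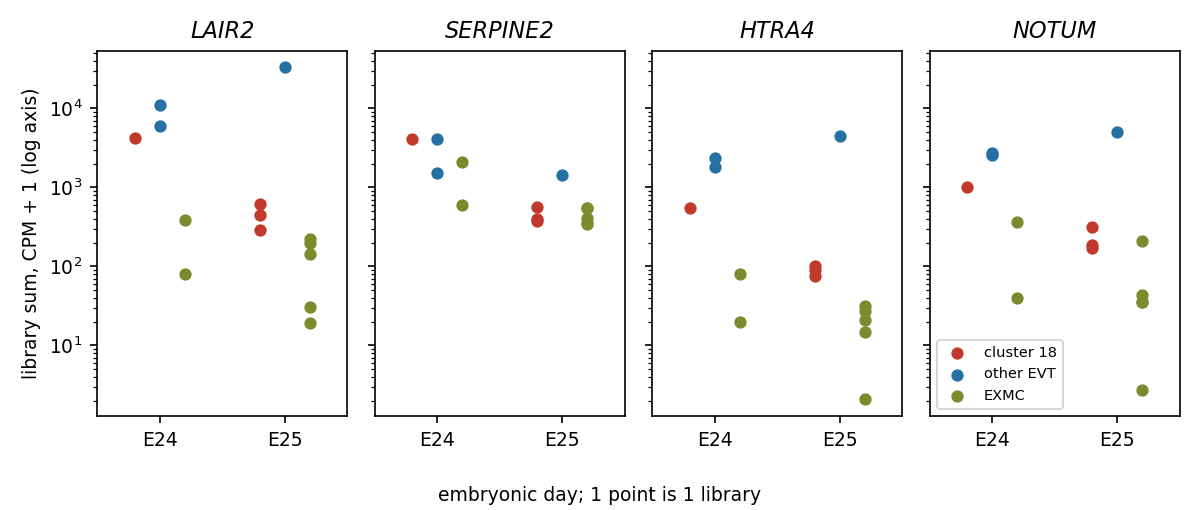
LAIR2, SERPINE2, HTRA4 and NOTUM by day, in CPM plus 1 of library sums on a log axis, with 1 point per library. In cluster 18 (red), where these genes were called higher in E24, the E24 library is above the 3 E25 libraries, 4190 against 285 to 614 CPM for LAIR2. The other EVT cells (blue) have more LAIR2 in E25.

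On the E24 side the largest differences were in genes with no or few counts in E25. GHV and CSH2 had no count in E25, and were at least 240-fold and at least 116-fold lower against a floor of 0.768 CPM (3 counts over the E25 libraries). CALCB, a calcitonin-related peptide, was at 86.6 CPM in E24 and 0 in E25, at least 113-fold lower. JAM2, a junctional adhesion molecule, was at 165 CPM against a mean of 0.879 ± 0.345 (SD, n = 3) in E25, a log2 difference of -7.55 (SE 0.91, edgeR adjusted p = 3.3e-06). MMP12, a macrophage elastase also made by trophoblasts, was at 557 CPM against 1.99, 15.7 and 6.90, AOC1, a diamine oxidase of the placenta, at 301 against 0, 0.49 and 25.3, and PADI1, a peptidylarginine deiminase, at 236 against 12.95, 4.42 and 11.5. DESeq2 did not call AOC1 (adjusted p = 0.51). CLEC2B, a lectin-like surface protein, was at 85.5 CPM in E24 and between 0.98 and 4.98 in E25. JAM2 and MMP12 were also high in other EVT cells of library 21, at 385 and 1073 CPM, and were at 51.7 and 43.8 CPM in its EXMC cells. PECAM1, an endothelial adhesion molecule that other EVT expressed at 1352 CPM, was at 347 CPM in E24 and at 42.8, 49.1 and 56.4 in E25 (log2 difference -2.81, edgeR adjusted p = 0.00033). The endothelial list summed to 820 CPM in library 21, against 385, 413 and 439 in the E25 libraries, with CLDN5 and EMCN at 0 and KDR at 252 CPM in library 21.

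On the E25 side the largest differences were at low levels. CXCL12, a stromal chemokine, was at 51.8, 34.9 and 28.8 CPM in E25 and 0 in E24, at least 23.2-fold higher against the floor of 1.63 CPM (3 counts in the E24 library). COL14A1, a collagen that binds to fibrils, was at 27.9, 30.96 and 51.8 CPM and 0, at least 21.3-fold higher. AQP1, a water channel, was at 47.8, 45.2 and 34.5 against 0.54 CPM. NXPH2, a secreted neurexophilin, was at 67.7, 26.5 and 8.05 CPM and 0 (at least 20.2-fold). CTSV, a lysosomal protease, was at 21.9, 36.9 and 94.3 against 0.54 CPM. GATC, part of a mitochondrial amidotransferase, was at 69.7, 33.9 and 44.9 against 1.09 CPM. APOA1 and TTR, both transport proteins of endoderm, were carried by library 22, with TTR at 655 CPM against 29.9 and 2.95 in the other 2 and APOA1 at 124 against 18.9 and 4.42. Limma-voom called none of these 8 genes (adjusted p of 0.37 to 0.68). Without library 16 edgeR called only COL14A1 and CTSV of the 8, and the others had adjusted p of 0.087 to 0.37. Without library 17 the call of AQP1 was lost (edgeR adjusted p = 0.069), and without library 22 those of APOA1, TTR and CTSV (edgeR adjusted p of 0.75, 0.75 and 0.15).

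Of 18 EXMC markers tested, 3 were lower in E25 (FBN1, HGF and DCN) and none higher, and the list median was -0.47. DCN differed by -0.80 (SE 0.21, edgeR adjusted p = 0.046). Among CTB markers 1 of 9 tested was higher in E25, PAGE4, at 1171, 1785 and 1246 CPM against 558 (log2 difference 1.33, edgeR adjusted p = 0.023). The list median was also 1.33. PAGE4 differed by 1.43 in other EVT, where it was called higher, and by -1.54 in EXMC, where it was called lower. KRT19 was higher in E25, at 975, 1299 and 842 CPM against 385 (log2 difference 1.44), and differed by 1.41 in EXMC. No STB marker, clock, glucocorticoid or PI3-kinase and FOXO gene was called. CCNB1 was lower in E25, at 91.7, 104.2 and 133.4 against 401 CPM. Each from a list of 10 tested genes with no other call, CTSL, a lysosomal protease (log2 difference -2.09, edgeR adjusted p = 0.00029), NDRG1, a hypoxia-induced gene (-1.42, edgeR adjusted p = 0.016), and GADD45A, a growth arrest gene (-1.95, edgeR adjusted p = 0.012), were lower in E25 too. Without library 16 the calls of HGF, DCN, PAGE4, KRT19, CCNB1 and NDRG1 were lost (edgeR adjusted p of 0.084, 0.15, 0.085, 0.11, 0.063 and 0.11), and without library 17 those of DCN, PAGE4 and KRT19 (0.19, 0.13 and 0.10).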

How the data were processed

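Single cells of cynomolgus monkey embryos were measured by RNA sequencing. The deposited values are raw counts per gene and cell from the authors' table of 21834 genes and 3682 cells. Per the submitters' processing notes, cutadapt 1.15, STAR 2.6.0a and HTSeq 0.10.0 were used. The sources used here do not state whether a count is a read or a molecule. The genome build and the treatment of doublets were not given in the sources used here. No doublet caller was run, and all 3682 cells were used. Cell types and cluster numbers were taken from the deposited annotation, and days from the labels, which disagreed in 2 libraries.

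Counts were summed per set of cells and divided by the set's total (CPM, pseudocount 1 in folds). Levels of a gene are not scaled by transcript length, so they are compared between sets of cells. The day contrast used edgeR 4.0.16 in R 4.3.3 (TMM, filterByExpr, quasi-likelihood test, Benjamini-Hochberg over all genes tested) on libraries with at least 5 members, whose sums ran from 869279 to 2034812 counts. The replicate unit is the library. limma 3.58.1 and DESeq2 1.42.0 served as alternatives. The test was run on simulated counts of 10003 genes. Of 100 genes changed 4-fold it recovered 18, of 100 changed 16-fold 53, and it called 5 unchanged genes. Intervals and the floor of 3 counts cover counting error only.

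Named genes above the 3 sets had at least 20 CPM, a symbol and a higher value in each of the 4 libraries (20 at most). For the days they were the 8 with the largest fold in each direction with a symbol and 20 CPM in the higher day, and list members that passed. For the position they were the 5 highest per side. Of 257 genes in 24 lists, 231 were in the table. The members and lists were chosen with earlier results of these data known. The remaining lists were set against other EVT, where 14% of all genes were 2 times above and 13.3% below: of 10 immediate early genes 4 were 2 times above and 1 below, of 10 cell cycle arrest genes 5 and 2, of 9 amino acid stress genes 3 and 0, of 9 hypoxia genes 1 and 0, of 5 steroid synthesis genes 0 and 3, of 10 lysosomal and autophagy genes 0 and 3, and of 13 mitochondrial transcripts 1 and 0. With the E24 and E25 embryos alone, 17.6% of all genes were above other EVT and 10.7% below. Immediate early genes then gave 2 above and 1 below, cell cycle arrest genes 6 and 1 and amino acid stress genes 6 and 0. Hypoxia genes gave 1 and 1, steroid synthesis genes 0 and 0, lysosomal and autophagy genes 2 and 3 and mitochondrial transcripts 0 and 0. Alternatives were another normalization, filter, tool, minimum of cells, fold, pseudocount and thinning, and leaving out each library. No sequence was used here.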

Additional observations from a re-analysis of the deposited data

Results flagged for a closer look

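Libraries of 1 day were compared in groups of 4 to 10, and 16 groups were checked. A library was taken as standing apart where its gap to its nearest neighbour was a large part of the group's range. Where most libraries of a group were at 0, a single count could stand apart, so no rate by chance is given. The share of cluster 18 among all cells was 2.44% in library 43 of E18 (2 members) and 1.14% in library 33 of E22 (1 member). It was 0 in the other libraries of those days. For GHV over all cells of a library, library 3 of E16 had 0.415 CPM (4 counts) and library 36 of E20 5.82. Library 24 of E21 had 0.139 (1 count) and library 33 of E22 28.3. For CSH2, library 42 of E18 had 1.73 CPM, library 38 of E20 6.79, library 33 of E22 19.8 and library 10 of E23 0.0901 (1 count). The group medians were at most 0.982 CPM for GHV and 0.345 for CSH2. In library 33 the GHV counts came from few cells, since 1 of 2 other EVT cells held 260 of them and the 1 member held none.

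For 10 named genes, the difference between E25 and E24 in cluster 18 differed from that in other EVT cells by an interaction term in edgeR (adjusted p under 0.05), which rests on 1 library in each of 2 arms. On the log2 scale, cluster 18 minus other EVT was -5.50 for LAIR2, -4.04 for HTRA4, -3.44 for NOTUM, -2.61 for SERPINE2 and -2.70 for FBN1. It was -6.79 for JAM2, -4.22 for MMP12, -8.82 for CALCB, -3.92 for PADI1 and -2.98 for PECAM1. The E25 side of other EVT is 1 library of 6 cells, and the E24 side of cluster 18 is library 21 alone. Both were assumed to vary like the other libraries. Without library 17, FBN1 and SERPINE2 no longer passed (adjusted p of 0.076 and 0.15).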

How the results depend on the processing

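The number of genes above other EVT, STB and EXMC was 60. It was 199 at a fold of 1.5, 7 at a fold of 4, 3 with a minimum of 50 CPM, 238 with no minimum beyond 10 counts and 27 with a pseudocount of 5. It was 145 with sets from the same embryos (37 shared with the 60), 138 with means over libraries (31 shared), 39 with CTB as a further set and 245 in thinned cells (19 shared). Leaving out a library gave 58 to 105, the highest without library 21. On the log2 scale against the highest set, LRP2, 1.56 in the report, was at -1.24 with CTB added and 0.26 in thinned cells. With sets from the same embryos ABCA7 was at 0.67, GHV at 0.33 and CSH2 at 0.68. With 1 library left out, GHV ran from -2.60 (library 21) to 2.26 (library 17) and CSH2 from -2.07 (library 21) to 2.06 (library 17). The positions kept their side, at 0.513 to 0.597 and 0.692 to 0.820 for the EXMC-high and EVT-high genes. The share of cluster 18 among EVT cells, 15.4%, was 11.2% to 16.96% with 1 of the 44 libraries left out (lowest without library 21, highest without library 12) and 11.2% to 13.8% over the 4 libraries with 5 or more members. Genes higher in E25, 59 in the report, were 121 with DESeq2, 98 with voom, 14 with libraries of 3 cells or more, 107 with libraries of 1 code and 19 to 107 with 1 library left out. Genes higher in E24, 73 in the report, were 80, 202, 43, 115 and 48 to 115 in that order. No value exists without library 21, the lone E24 library. Members past both thresholds were 87.3% without cells under 20000 counts in any set, with the thresholds taken anew. Of the 37 genes named between the days (4 of them the mitochondrial transcripts named under the other observations), none changed direction. Those that lost the call were 16 of 34 with libraries of 3 cells or more, 14 without library 16, 7 without library 17, 3 without library 22 and 8 with voom. The cause of these changes was not tested, and fewer samples were tested where a library was left out. The difference of the day contrast between cluster 18 and other EVT, 52 genes, was 31 to 68 genes with 1 library left out (51 of 52 shared without library 16, 26 without library 17), and that between cluster 18 and EXMC, 0 genes, was 0 to 1. Of the 10 named genes, FBN1 and SERPINE2 lost the call without library 17. With a replicate block of the library, 3 genes differed between the contrasts of cluster 18 and EXMC. No paired analysis was possible because no library belongs to both days, so the contrast of days itself takes no block, and other EVT shares only library 21 with cluster 18.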

Other observations

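Some cells had a paired DNA library in the deposited annotation. This was so for 28 of 87 members (32.2%, exact 95% interval 22.6% to 43.1%), 72.7% of other EVT, 22.9% of EXMC, 36.1% of CTB and 90.1% of STB cells. Within library 21 it was 17 of 29 members, 18 of 18 other EVT and 15 of 36 EXMC cells.

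Ribosomal protein genes, a list formed by symbol after the values were seen, made up 26 of the 59 genes higher in E25 within cluster 18, out of 53 tested, where 0.59% of all genes were. The same contrast gave 35 of 53 in other EVT, where 7.22% of all genes were higher, and 29 of 53 in EXMC, where 3.06% were, with libraries shared between the fits. Mitochondrial transcripts were lower in E25 in 4 of 13 cases within cluster 18 (ATP8, ND3, ND6 and CYTB), in 4 of 13 in other EVT and in 9 of 13 in EXMC, where 0.73%, 10.9% and 3.43% of all genes were lower.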
